A study of Oryctolagus cuniculus with 12 samples.

Results

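The transcripts described here encode serum amyloid A and haptoglobin in the basilar artery of the rabbit, the vessel that lies on the brain stem. They come from 3 genes, of 7352 genes tested in all, and were read by the 7 probes, of 43623 non-control probes, that names, accessions or descriptions on the array assign to them. SAA3, which the array describes as a pseudogene and RefSeq lists as protein coding, has 3 probes. LOC100009168, described as serum amyloid protein A, and HP, the haptoglobin gene, have 2 each. The genes were chosen by their measured signals in these arrays, with the differences of the days after the bleed from the controls known, so every difference of theirs that uses the day 3 or the control arrays is given as a description, without a test. The study measured total RNA on 12 single-colour arrays, 1 per sample, in 4 groups of 3. The groups were arteries taken 3 days, 5 days and 7 days after an experimental subarachnoid hemorrhage (SAH), a bleed into the fluid around the brain, and control arteries labelled normal, which the study's design counts as day 0. How the bleed was made, and whether the controls had a sham operation, is not given in the sources used here. Nor do the labels say whether the samples of a group came from separate animals, so the p-values speak for the spread among these samples alone, and that spread may be technical.

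Serum amyloid A and haptoglobin are secreted acute phase proteins. The liver makes most of what circulates after an injury, under the drive of interleukin 6 and interleukin 1, while SAA3 is known in rabbits and mice as a form that is also made outside the liver, by cells such as macrophages and fibroblasts. Serum amyloid A binds to lipoproteins and to receptors of innate immunity, and haptoglobin binds free hemoglobin, the protein that red blood cells release when they break down after a bleed, so that macrophages can clear it.

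The probe sequences show which probes can report on each other. They are 60 bases long, printed 5′ to 3′ as the array files give them, with capitals for the longest run of bases shared with the partner named in the text.
SAA3 RefSeq probe: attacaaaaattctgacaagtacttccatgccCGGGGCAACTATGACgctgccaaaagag
SAA probe A: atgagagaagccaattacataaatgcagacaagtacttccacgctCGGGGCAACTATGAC
SAA probe B, last 30 bases: gtctAATAAAtgcgtatgagactgaaaaaa
SAA3 EST probe A: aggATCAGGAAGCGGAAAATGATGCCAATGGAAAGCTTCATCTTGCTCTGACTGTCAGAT
HP probe A: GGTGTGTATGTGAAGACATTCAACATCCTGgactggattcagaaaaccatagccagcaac
HP probe B: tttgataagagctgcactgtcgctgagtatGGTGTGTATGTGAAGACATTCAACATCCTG

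The SAA3 RefSeq probe and SAA probe A overlap over 47 bases with 5 mismatches, and their longest shared run has 15 bases. They target different genes of the family, and RNA of either gene may bind both probes. SAA probe A is named LOC100009259 on the array, a neighbouring serum amyloid A gene, and its accessions list the messenger RNA of that gene and of LOC100009168. SAA probe B, which the array names LOC100009168, lists the same accessions. It has no such overlap with another member, holds AATAAA (capitals), the usual polyadenylation signal, and ends in 6 A bases, while 3.97% of all non-control probes hold these letters on the printed strand. Both SAA3 EST probes were designed from expressed sequence tags, single reads of cDNA clones, and share 57 bases, so only probe A is printed. Their strand relative to the SAA3 transcript was not tested, so they may not read the same RNA as the SAA3 RefSeq probe. Their mean day 3 signals were 519 and 546 units (EST probes A and B), against 90794 for the RefSeq probe. The HP probes share 30 bases. Per the array files they lie at chr5:27499138-27499197 (probe A) and chr5:27499168-27499227 (probe B) on the minus strand of a genome build that the files do not name. None of the other 43616 probes overlapped a member over 30 or more bases at 70% identity or more.

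All 7 probes entered the tests, which took the 26437 probes that 1 or more groups measured well above background in all 3 of its arrays. Of the 12 arrays, all measured the 5 probes other than the EST probes above background, and 11 measured each EST probe, the exception being control replicate 2. That array stood apart in quality, where 50.1% of the spots passed this criterion, compared with 58.2% to 64.0% for the 11 remaining arrays. Values are log2 signals relative to the 75th percentile of their array, which lay between 127 and 191 signal units, and no spot was saturated. Each of 3 slides held the 4 arrays of 1 replicate number, and a group had the same position on each slide, so group and position on the slide cannot be told apart. In whole arteries, more cells of a type and more RNA per cell cannot be told apart either.

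SAA3, the form of serum amyloid A known from tissues outside the liver, had its highest values on day 3. Its RefSeq probe had 8.50, 8.80 and 9.44 on day 3 in replicates 1, 2 and 3, against 2.69, 2.05 and 4.30 in the controls. It had 6.58, 6.0 and 7.11 on day 5, and 7.68, 6.85 and 6.57 on day 7. The groups did not overlap except for days 5 and 7, and the lowest array after the bleed, day 5 replicate 2, lay 1.70 above the highest control, replicate 3. The mean was 8.91 ± 0.48 on day 3, against 3.01 ± 1.16 in the controls (SD, n = 3 each), a difference of 5.90 or 59.6-fold. The mean was 6.56 ± 0.55 on day 5 and 7.04 ± 0.58 on day 7 (SD, n = 3 each), which is 11.7-fold and 16.3-fold above the controls. On a linear scale, the signal of day 5 was 19.6% of that of day 3, and the signal of day 7 was 27.3% of it.

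The EST probes of SAA3 also had their highest values on day 3, by smaller differences from the controls than the RefSeq probe on that day. SAA3 EST probe A had 1.24, 1.59 and 1.67 on day 3, against -3.12, -4.58 and -2.96 in the controls, of which 2 of 3 measured it. It had -0.15, -0.70 and 0.27 on day 5, and 0.52, -0.25 and -0.25 on day 7. All 9 arrays after the bleed lay above the 3 controls, and the 3 arrays of day 3 lay above those of days 5 and 7. The difference from the controls was 5.05 on day 3, 3.36 on day 5 and 3.56 on day 7, and for EST probe B it was 5.39, 3.63 and 3.89. These sizes depend on how the background is treated: with normexp background correction they were 2.82, 1.47 and 1.61 for probe A and 2.73, 1.36 and 1.53 for probe B.

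The LOC100009168 probes were 5.58 and 6.01 above the controls on day 3, and probe B lay closer to the controls than probe A on days 5 and 7. SAA probe A had 6.05, 6.69 and 7.16 on day 3, against 0.16, -0.14 and 1.86 in the controls. It had 3.91, 3.67 and 4.45 on day 5, and 5.0, 4.4 and 4.0 on day 7. Again only days 5 and 7 overlapped, and the order of the arrays within a group was that of the SAA3 RefSeq probe in every group. The mean was 6.64 ± 0.55 on day 3, against 0.62 ± 1.08 in the controls (SD, n = 3 each), a difference of 6.01 or 64.5-fold, and the differences on days 5 and 7 were 3.39 and 3.84.

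SAA probe B had 4.26, 5.86 and 6.41 on day 3, against -0.57, -0.90 and 1.26 in the controls. It had 2.52, 2.45 and 2.01 on day 5, and 2.97, 1.89 and 1.97 on day 7. The highest control, replicate 3, lay 0.63 below the lowest array after the bleed, which was day 7 replicate 2, and this was the smallest gap of the 7 probes. The mean was 5.51 ± 1.11 on day 3, against -0.07 ± 1.16 in the controls (SD, n = 3 each), a difference of 5.58 or 47.8-fold. It was 2.33 ± 0.27 on day 5 and 2.28 ± 0.60 on day 7 (SD, n = 3 each), which is 5.27-fold and 5.08-fold above the controls. The linear signal of day 5 was 11% of that of day 3, and the signal of day 7 was 10.6% of it, against 16.2% and 22.2% for SAA probe A.

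The 2 probes of LOC100009168 thus differed in how much of the day 3 signal remained. The difference from the controls was larger for probe A than for probe B by 0.43 on day 3, 0.99 on day 5 and 1.49 on day 7. It was larger on each slide, by 0.67, 0.46 and 1.84 on day 5 and by 1.30, 1.75 and 1.43 on day 7. The SAA3 RefSeq probe exceeded SAA probe B by similar amounts, 1.15 on day 5 and 1.68 on day 7, and differed from SAA probe A by 0.16 and 0.18. These comparisons use the control arrays and were not tested.

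HP, whose protein captures free hemoglobin, matched serum amyloid A in size. HP probe A had 6.2, 6.06 and 6.71 on day 3, against -0.14, -0.04 and 1.87 in the controls. It had 4.88, 3.21 and 3.64 on day 5, and 3.96, 3.52 and 4.70 on day 7. The 3 arrays of day 3 were the highest, those of days 5 and 7 overlapped, and all 9 lay above the controls, by 1.35 or more. The mean was 6.32 ± 0.34 on day 3, against 0.56 ± 1.13 in the controls (SD, n = 3 each), a difference of 5.76 or 54.2-fold. The mean was 3.91 ± 0.87 on day 5 and 4.06 ± 0.60 on day 7 (SD, n = 3 each), 10.2-fold and 11.3-fold above the controls. HP probe B differed from the controls by 5.63, 3.34 and 3.51 on days 3, 5 and 7, within 0.14 of probe A.

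**Figure D1:**
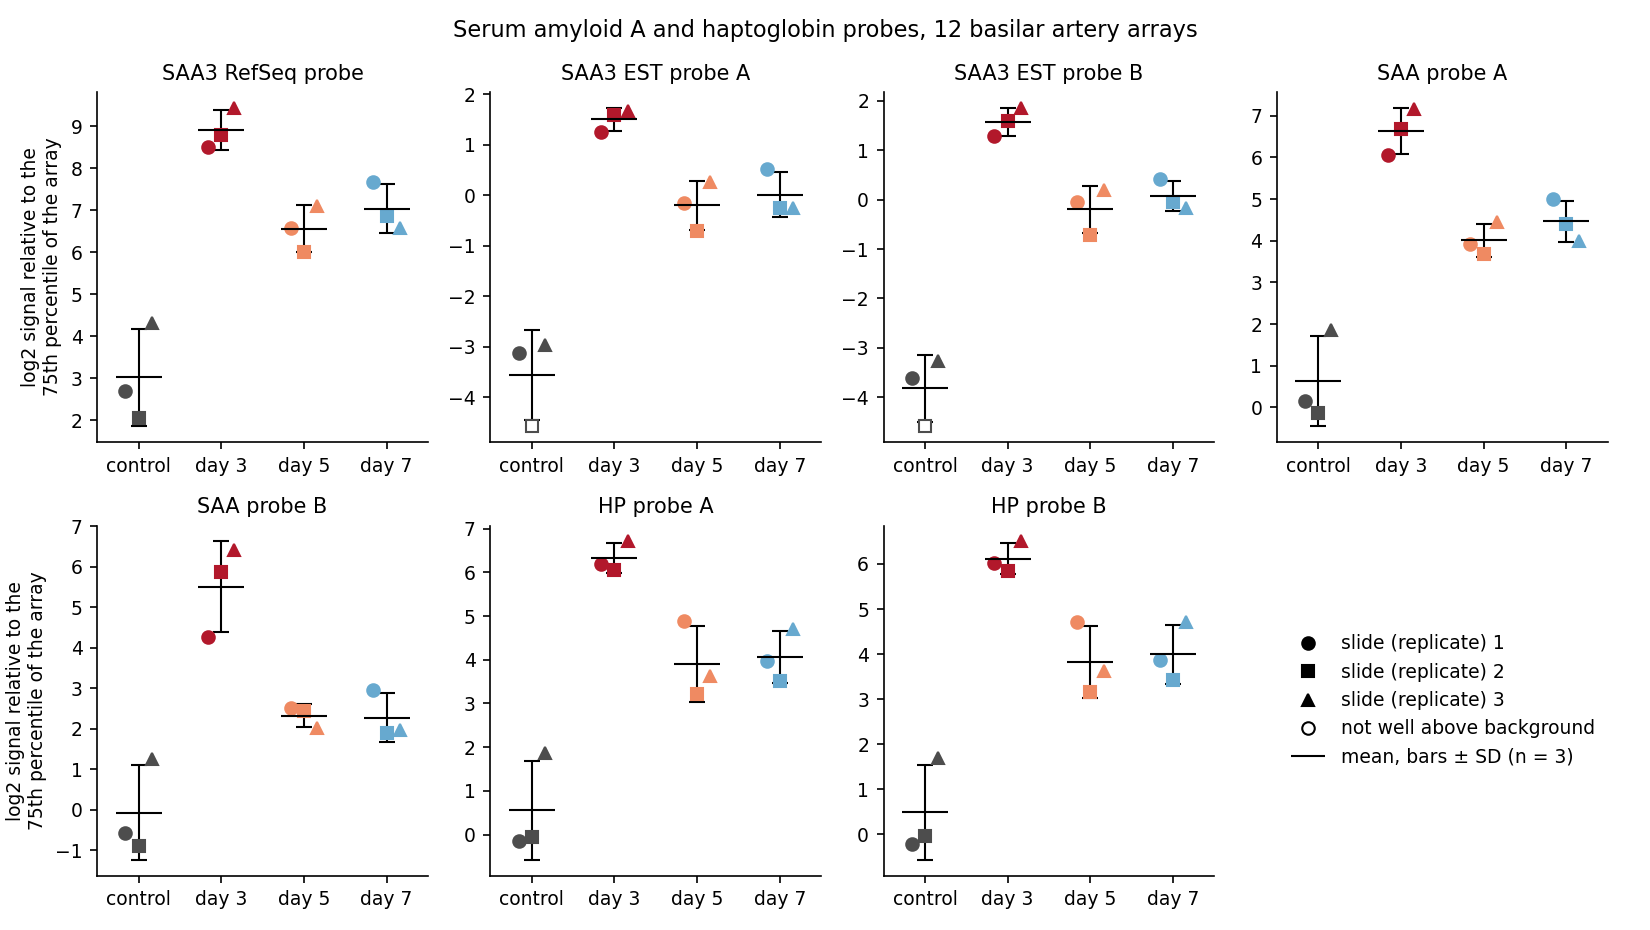
Log2 signal over the array's 75th percentile (vertical axes) of each serum amyloid A and haptoglobin probe in the control, day 3, day 5 and day 7 arrays, with the mean and SD of 3 arrays per group. In every panel the day 3 arrays lie highest and the controls lowest, control replicate 3 (triangle) lies above the other controls, and the open symbols mark the 2 values of control replicate 2 that were not well above background.

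Over the 7 probes, the day 3 difference from the controls was between 5.05 and 6.01. It was between 2.40 and 3.63 on day 5, and between 2.35 and 4.02 on day 7. Within slides it ranged from 4.37 to 6.84, from 0.75 to 5.02 and from 0.71 to 5.0, and was positive in all 21 values of each day. All 7 probes had groups that did not overlap with the controls on each day. Of all tested probes, 13.1% were higher without overlap on day 3, 10.3% on day 5 and 12.3% on day 7, and since these contrasts chose the members, nothing is read from their count. Relative to day 3, the probes were lower by 1.70 to 3.18 on day 5 and by 1.5 to 3.23 on day 7, without overlap. The shares of tested probes lower than on day 3 without overlap were 6.34% on day 5 and 10.2% on day 7. Members with the highest day 3 difference were SAA probe A (6.01), the SAA3 RefSeq probe (5.90) and HP probe A (5.76), and the within-slide ranges of all 7 overlapped. The median difference of all tested probes was 0.001 on day 3, 0.04 on day 5 and 0.07 on day 7.

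**Figure D2:**
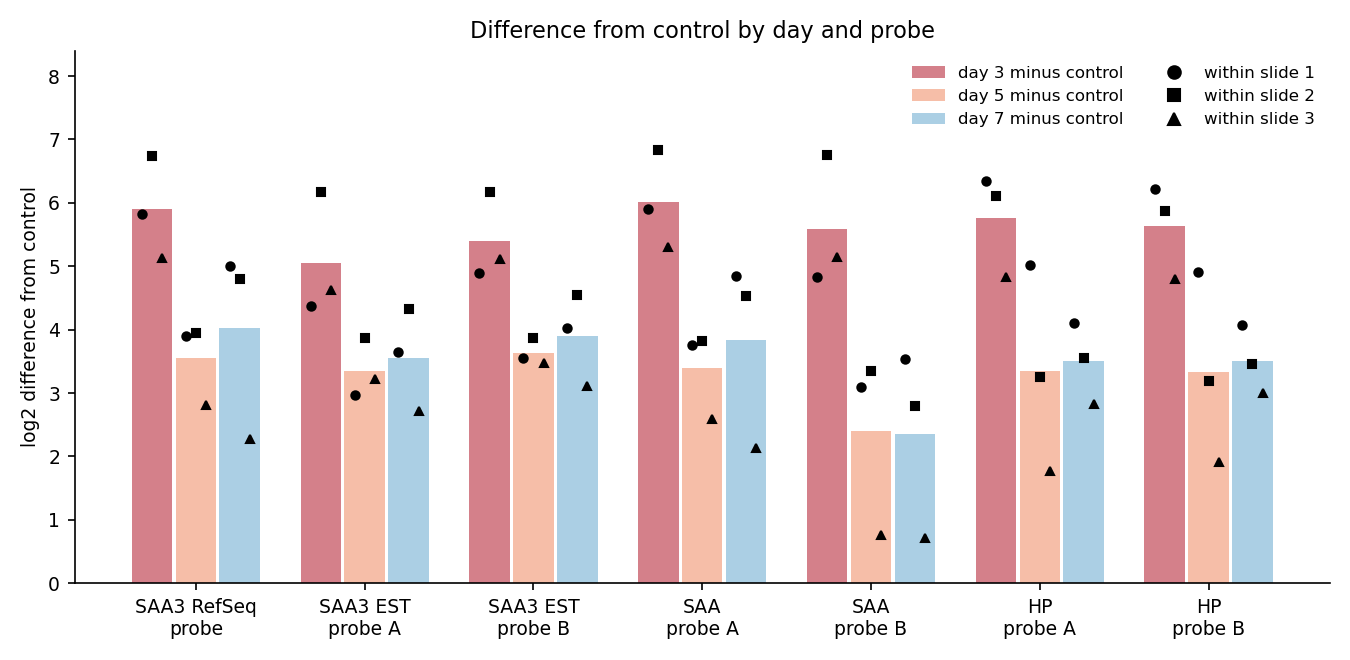
Log2 difference from control (vertical axis) of the 7 probes on days 3, 5 and 7; bars are differences of group means and black symbols are the differences within each of the 3 slides. The day 3 bars reach 5.05 to 6.01, the bars of SAA probe B on days 5 and 7 (2.40 and 2.35) are the shortest, and slide 3 gives the lowest value of most bars on days 5 and 7.

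Control replicate 3 carried more of these transcripts than the other controls. It exceeded their mean by 0.82 to 2.0 over the 7 probes, 1.94 for the SAA3 RefSeq probe, 2.0 for SAA probe B and 1.96 for HP probe A. All 9 arrays after the bleed still exceeded control replicate 3 for each probe. Without control replicate 3 the day 3 differences were between 5.35 and 6.63, those of day 5 between 3.06 and 4.19, and those of day 7 between 3.01 and 4.67. Without control replicate 2, the array of lower quality, they were 4.54 to 5.63, 1.98 to 3.25 and 1.93 to 3.54.

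The difference of day 7 from day 5 uses neither the control nor the day 3 arrays, and there the probes were tested. The spread in this test comes from all 12 arrays, so its intervals and p-values also rest on the control and day 3 arrays. For SAA probe B the SD was 1.11 on day 3 and 1.16 in the controls, against 0.27 and 0.60 on days 5 and 7. No probe passed. The SAA3 RefSeq probe differed by 0.47 (95% interval -0.67 to 1.62, limma adjusted p = 1.0), SAA probe A by 0.45 (-0.61 to 1.51), SAA probe B by -0.05 (-1.38 to 1.28) and HP probe A by 0.15 (-1.06 to 1.36). EST probes A and B differed by 0.20 (-0.68 to 1.09) and 0.26 (-0.48 to 1.01), and HP probe B by 0.17 (-0.99 to 1.33). In limma 0 of 7 probes had an adjusted p below 0.05 and 0 of 7 an unadjusted one, and 0 of the 26437 tested probes (0%) were called between these days. With 3 arrays a group, the intervals reach from -1.38 to 1.62 over the probes, so they do not show that the levels were equal. The slides differed in direction: serum amyloid A of day 7 was above day 5 on slides 1 and 2 and below it on slide 3 for the SAA3 probes and SAA probe A, whereas HP was below on slide 1 and above on slides 2 and 3.

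**Figure D3:**
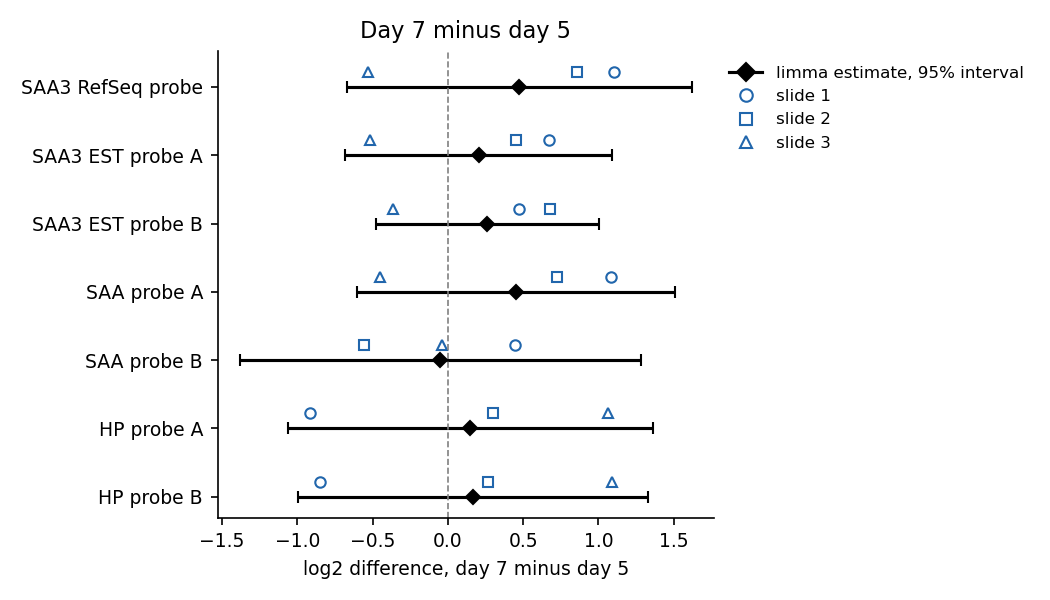
Log2 difference of day 7 minus day 5 (horizontal axis) for the 7 probes, as the limma estimate with its 95% interval (diamonds and bars, n = 3 arrays per day) and as the difference on each slide (open symbols). All 7 intervals include 0, and for the HP probes slide 1 lies below 0 while for the SAA3 probes slide 3 does.

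Arrays of the same group differed in their serum amyloid A and haptoglobin levels, and the probes of the serum amyloid A family deviated together. The deviations from the group means correlated at r = 0.98 between the SAA3 RefSeq probe and SAA probe A over 12 arrays, and at 0.95 over the 9 arrays after the bleed. For the SAA3 RefSeq probe and SAA probe B these were 0.78 and 0.57, and for its pairs with EST probes A and B 0.84 and 0.90, then 0.94 and 0.96. The HP probes correlated with each other at 0.997. HP probe A and the SAA3 RefSeq probe deviated together at 0.59 over 12 arrays and at 0.14 over the 9 after the bleed. On day 7, replicate 1 had the highest SAA3 value (7.68) and replicate 3 the lowest (6.57), while for HP replicate 3 was the highest (4.70). On day 5, replicate 3 had the highest SAA3 value (7.11) and replicate 1 the highest HP value (4.88). The points share their arrays and scaling, and probes that overlap in sequence may bind the same RNA, so these correlations are descriptions.

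**Figure D4:**
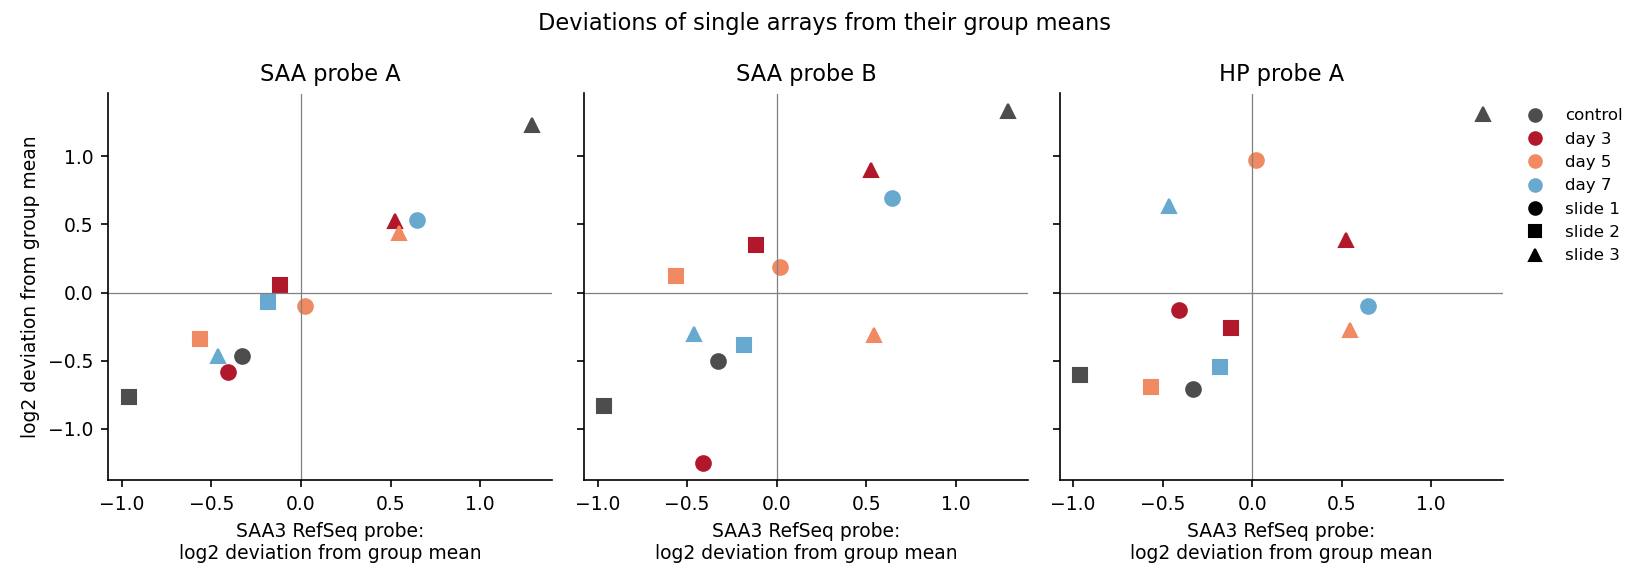
Log2 deviation of each array from its group mean for SAA probe A, SAA probe B and HP probe A (vertical axes) against that of the SAA3 RefSeq probe (horizontal axis), 12 arrays. The points of SAA probe A lie close to a line (r = 0.98), those of HP probe A are scattered (r = 0.59), and control replicate 3 (dark triangle) lies at the upper right in each panel.

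Other acute phase proteins were higher after the bleed as well. Of 28 listed genes whose proteins increase in the acute phase, 20 had a named probe and 13 were tested. On day 3, 6 of the 13 rose and 0 fell, with a median difference of 0.99, whereas 4.91% of the 7352 tested genes rose and their median difference was -0.005. On days 5 and 7, 7 of the 13 rose each time, with medians of 1.08 and 1.17, beside 1.99% and 2.01% of all genes. Single arrays weighed on these counts: 4 were called on day 5 without control replicate 2. On day 7, 2 were called without day 7 replicate 1 or 3, 3 without day 7 replicate 2 or control replicate 2, and 4 without control replicate 1. TIMP1, which inhibits matrix metalloproteinases, rose by 3.49 (SE 0.28, limma adjusted p = 7.75e-05). It had 6.98, 7.24 and 8.01 on day 3, against 3.68, 3.99 and 4.08 in the controls. CP, the copper-carrying ferroxidase ceruloplasmin, rose by 2.88 (SE 0.22, adjusted p = 7.75e-05). It had 6.09, 6.76 and 6.70 on day 3, against 3.62, 3.39 and 3.89 in the controls. In both genes the 3 arrays of day 3 lay above all controls.

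IL1RN, which blocks the interleukin 1 receptor, rose by 1.97 on day 3 (SE 0.28, limma adjusted p = 0.00196). CFB and C4A, complement components, rose by 1.52 and 0.99, and CD14, a receptor for bacterial lipopolysaccharide, by 1.44. C3, the central complement protein, was at 0.39 on day 3 (adjusted p = 0.628) and rose by 1.78 and 2.12 on days 5 and 7, when SAA3 and HP were below their day 3 values. ORM1, an acid glycoprotein of plasma, was above background in 0 of 3 controls and was at least 1.09-fold higher on day 7 (limma adjusted p = 0.0426). Its probe entered the tests through day 7 alone, so this call, counted among those of day 7 above, adds no independent support for a rise. CRP, the C-reactive protein of plasma, had log2 differences of -0.63, -0.25 and -0.06 on days 3, 5 and 7 (limma adjusted p = 0.0893, 0.649 and 0.9). These come from 1 dim probe, above background on 2 of 3 arrays of day 3 and of the controls. The other CRP probes were above background on 0 arrays. LCN2, a neutrophil and epithelial acute phase protein, was not above background on all arrays of any group. The calls of IL1RN, CP, TIMP1, CFB and CD14 on day 3 held under each alternative tried, and that of C4A ended under 5 of 19. The day 5 calls of CFB and C3 ended under 15 and 12 of the 19, and the day 7 calls of ORM1 and IL1RN under 13 and 11, with adjusted p from 0.0501 to 0.622 where those of ORM1 and IL1RN ended.

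Among the proteins that decrease in the acute phase, 4 of 10 were tested and none fell. Of all tested genes, 2.03%, 0.218% and 0.585% fell on days 3, 5 and 7. RBP4, the carrier of retinol, rose by 1.42 on day 3 (SE 0.18, limma adjusted p = 0.000998). TTR, the carrier of thyroxine that is also made by the choroid plexus, had -0.38, 0.53 and 0.28 on day 3, against 1.3, -0.81 and 2.42 in the controls, and was not called (adjusted p = 0.688). ALB, APOA1 and APOA2 were not above background on all arrays of any group.

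Inducers and signalling genes of the acute phase came next. Of 24 listed genes, 14 were tested, of which 3 rose on day 3, 1 on day 5 and 0 on day 7, with medians of 0.15, 0.24 and 0.08, beside 4.91%, 1.99% and 2.01% of all tested genes that rose. The day 3 count was 0 without control replicate 1 or day 3 replicate 3, and 1 without day 3 replicate 1. On day 7, 6 of the 14 had an unadjusted p below 0.05. IL6, the cytokine that drives serum amyloid A and haptoglobin in the liver, had 1 tested probe. This probe was above background on all 3 arrays of day 3, at -3.22, -3.62 and -1.76, and on 0 arrays of the other groups. Each other IL6 probe was above background on 2 arrays of day 3, up to 1 of day 5, up to 2 of day 7 and 0 controls. The tested probe was at least 1.61-fold higher on day 3 than in the controls (limma adjusted p = 0.0169). Its call ended with normexp background correction, without control replicate 1 and without day 3 replicate 3 (adjusted p = 0.0535 to 0.433). The probe entered the tests through day 3 alone, so this call, counted among those of day 3 above, adds no independent support for a rise. IL6ST, the signalling receptor chain shared by this cytokine family, rose by 0.71, and OSMR, the oncostatin M receptor, by 0.68. Their calls ended without control replicate 1, day 3 replicate 1 or day 3 replicate 3 and with no filter on dim probes (adjusted p = 0.0572 to 0.0948 for IL6ST and 0.058 to 0.0728 for OSMR). IL1B, which encodes interleukin 1 beta, had 0.81, -0.76 and -0.24 on day 3, against -0.84, 1.17 and 0.90 in the controls, and was not called on any day (adjusted p = 0.741 on day 3). STAT3, the transcription factor downstream of interleukin 6, differed by 0.25 on day 3 (adjusted p = 0.357). CEBPB, CEBPD and SOCS3 had no named probe.

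**Figure D5:**
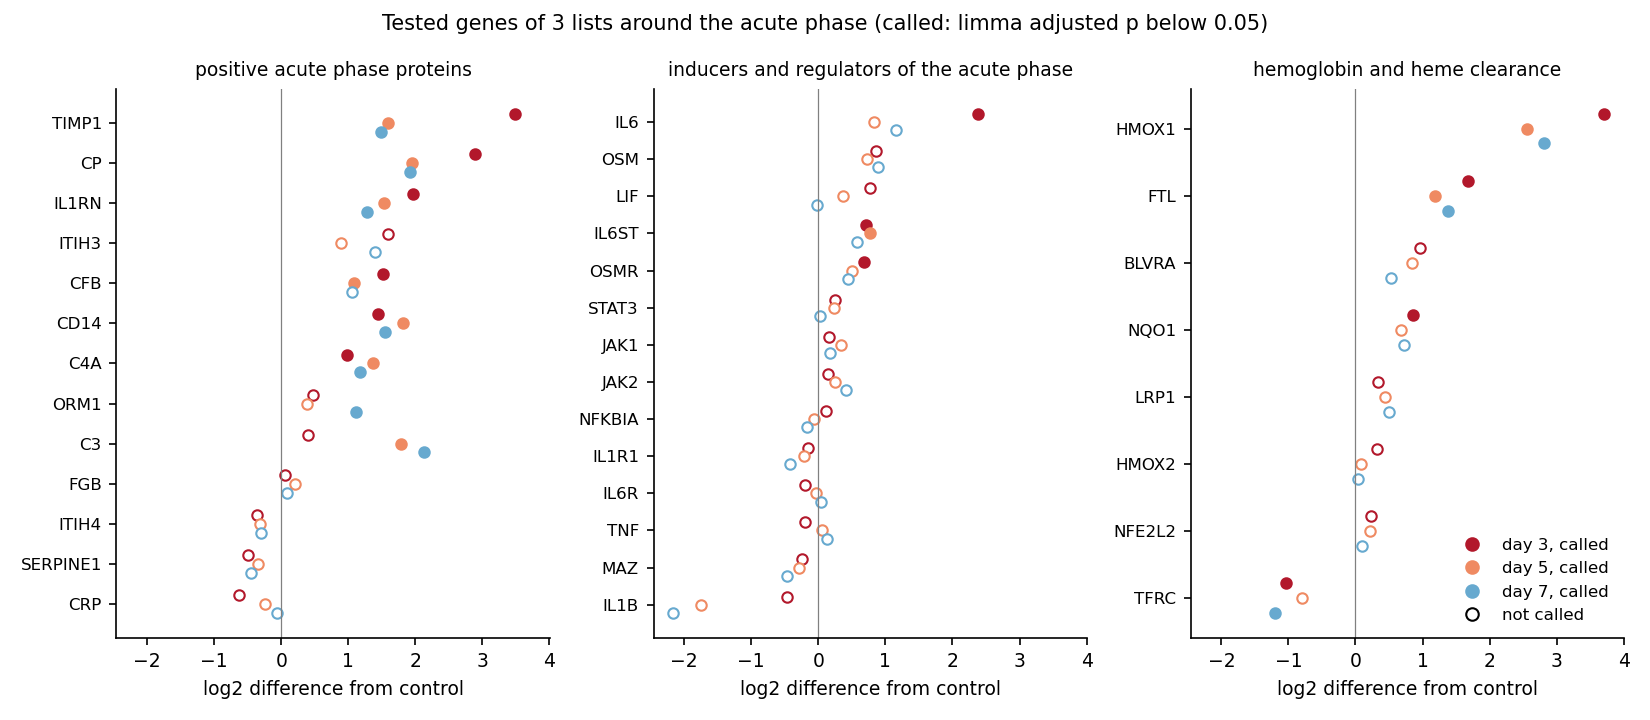
Log2 difference from control (horizontal axes) on days 3, 5 and 7 of the tested genes of 3 lists around the acute phase; filled points passed limma's adjusted p of 0.05. TIMP1 (3.49), HMOX1 (3.71) and CP (2.88) have the largest day 3 differences, and the point of IL6 on day 3 (fitted at 2.39) is a fit to controls that were not above background.

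Receptors and partners of serum amyloid A were listed as well. Of 16 listed genes, 12 were tested, of which 1 rose and 1 fell on days 3 and 7, and 1 rose on day 5. Among all tested genes, 4.91%, 1.99% and 2.01% rose and 2.03%, 0.218% and 0.585% fell on days 3, 5 and 7. On day 7 the count of listed genes called was 1 without day 7 replicate 1 or 2 and 4 without control replicate 3. TLR4, the receptor for lipopolysaccharide that also responds to serum amyloid A, rose by 1.15 on day 3 (SE 0.21, limma adjusted p = 0.00885), by 1.46 on day 5 and by 1.39 on day 7. It had 1.14, 0.68 and 0.79 on day 3, against -0.09, -0.72 and -0.03 in the controls, with no overlap. APOE, a lipoprotein component, fell by 1.0 on day 3 (SE 0.14, adjusted p = 0.00185), and its call on day 7 ended under 6 of 19 alternatives. TLR2, another such receptor, had differences of 0.77, 0.91 and 0.95 (adjusted p = 0.1, 0.106 and 0.0774). FPR2, the formyl peptide receptor that binds serum amyloid A, was not above background on all arrays of any group.

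Genes that handle hemoglobin and heme, the ligands of the haptoglobin pathway, were partly measured. Of 15 listed genes 8 were tested, of which 3 rose and 1 fell on day 3, 2 rose on day 5, and 2 rose and 1 fell on day 7. Among all tested genes, 4.91%, 1.99% and 2.01% rose and 2.03%, 0.218% and 0.585% fell on these days. HMOX1, which degrades heme, rose by 3.71 (SE 0.37, limma adjusted p = 0.000211). It had 0.55, 1.01 and 2.15 on day 3, against -2.22, -2.92 and -2.28 in the controls, of which 2 of 3 measured it. It rose by 2.56 on day 5 and 2.80 on day 7, and all 9 arrays after the bleed lay above the controls. Its probe entered the tests through the days after the bleed alone, so its calls, counted above, add no independent support for a rise. FTL, the light chain of the iron store ferritin, rose by 1.68, 1.18 and 1.39 (adjusted p = 0.00136, 0.0218 and 0.00937). NQO1, a target of the oxidative stress factor NFE2L2, rose by 0.86 on day 3 and TFRC, the transferrin receptor, fell by 1.03, calls that ended under 8 and 16 of 19 alternatives (adjusted p = 0.0507 to 0.331). TFRC was also the gene that fell on day 7, a call that ended under 13 of 19 (adjusted p = 0.0519 to 0.417), and the day 5 call of FTL ended under 4. CD163, the macrophage receptor for haptoglobin bound to hemoglobin, and HPX, the heme carrier hemopexin, had no named probe.

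Markers of cells that can carry serum amyloid A or haptoglobin RNA were summed on the linear scale, as multiples of the 75th percentile of the array. Of the 14 hepatocyte markers, 5 were tested and none was called on any day (0 with an unadjusted p below 0.05). Their sum was 27.0 to 30.2 on day 3, against 22.4 to 32.9 in the controls, and ALB and APOA1 were above background on 0 arrays. Most of this sum was TF, the transferrin gene, with mean log2 values of 4.75 on day 3 and 4.68 in the controls. TTR came next, at 0.14 and 0.97, so the sum says little about the other hepatocyte markers. Of the 13 neutrophil markers, 7 were tested and none was called (0 on days 3, 5 and 7 with an unadjusted p below 0.05), with sums of 4.81 to 5.46 on day 3, against 3.80 to 6.16 in the controls. S100A8, with 10 tested probes, differed by 1.32 on day 3 by its brightest probe (limma adjusted p = 0.531, control SD 1.77). Several of its other probes were above background on all 3 arrays of day 3 but on 1 of 3 controls, and some on all 3 controls. On day 7 the neutrophil sum was highest in replicate 1, at 12.2, and on day 5 in replicate 3, at 4.89. These arrays also had the highest SAA3 values of their days. On day 3 the sum was highest in replicate 2 (5.46) and in the controls in replicate 1 (6.16), while SAA3 was highest in replicate 3 in both groups. ELANE, LTF and CYP2E1 had no named probe. Of the 13 macrophage markers, 9 were tested. On day 3, 5 of them rose, and 6 each on days 5 and 7, beside 4.91%, 1.99% and 2.01% of all tested genes. The count was 3 on day 3 without control replicate 1 or 2, and 3 on day 5 without day 5 replicate 1. The calls of C1QB, a complement subunit made by macrophages, ended under 5, 5 and 6 of the 19 alternatives on days 3, 5 and 7, those of MSR1, a scavenger receptor, under 6 each on days 5 and 7, that of MRC1, the mannose receptor, under 4 on day 3, and that of CYBB under 1 on day 5. MSR1 was above background in 1 of 3 controls, and its probe entered the tests through the days after the bleed alone. Its calls, counted above, thus add no independent support for a rise. The sum of the 9 macrophage markers lay between 28.0 and 39.7 on day 3, between 35.3 and 50.6 on day 5, and between 31.9 and 44.5 on day 7, against 10.3 to 15.3 in the controls. CD68, a lysosomal protein of macrophages, had 1.07, 0.96 and 1.25 on day 3, against -0.87, -1.32 and -1.03 in the controls (difference 2.17, limma adjusted p = 0.000126). The macrophage sum was thus above the controls on each day without overlap, as the members were, but its median was lower on day 3 (34.3) than on day 5 (39.1) and day 7 (38.1). Its part in the levels of SAA3 and HP was not tested.

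Of 10 markers of fibroblasts and leptomeninges, 9 were tested: 4 rose and 4 fell on day 3, 2 rose on day 5 and 4 rose on day 7. Among all tested genes, 4.91%, 1.99% and 2.01% rose and 2.03%, 0.218% and 0.585% fell on these days. The collagen genes COL1A1, COL1A2 and COL3A1 and the matrix gene LUM were those that rose on day 3 and on day 7, and PTGDS, SLC22A6, SLC22A8 and IGFBP2, which are abundant in the leptomeninges, were those that fell. The calls of COL1A2, COL3A1 and LUM on day 3 ended under 7, 8 and 3 of the 19 alternatives, and on day 7 under 2, 14 and 12. The 8 calls on day 3 compare with 5 without control replicate 1 and 4 without day 3 replicate 2, and the 2 calls on day 5 with 4 without control replicate 2 or 3. The sum of all 9 markers was 1202 to 1275 on day 3, against 1429 to 2387 in the controls, and control replicate 3, which had the most SAA3 and HP of the controls, was the highest array. In the other groups the sum was highest in replicate 2 on day 3 (1275), replicate 1 on day 5 (1706) and replicate 3 on day 7 (2026). On these days SAA3 was highest in replicates 3, 3 and 1, and HP in replicates 3, 1 and 3. Of 10 smooth muscle markers, the tissue's own cell type, 9 were tested and 1 fell on day 3, beside 2.03% of all tested genes. It was MYL9, a myosin light chain, and its call ended under 13 of 19 alternatives (limma adjusted p up to 0.167). The sum of the 9 smooth muscle markers was 681 to 771 on day 3, against 985 to 1105 in the controls. Of 8 endothelial markers 5 were tested and of 8 erythroid ones 2, with 0 called in limma on each day. An unadjusted p below 0.05 was reached by 2 endothelial genes on day 3, 0 on day 5 and 2 on day 7, and by 0, 0 and 1 erythroid genes. HBA, which encodes alpha globin, had 4.24, 5.09 and 6.54 on day 3, against 5.62, 4.72 and 5.02 in the controls. The sum of the 2 erythroid genes was 19.0 to 93.7 on day 3 and 46.4 to 88.9 on day 5, which overlapped the controls (26.4 to 49.4). On day 7 it was 71.9 to 112.6, above the controls without overlap. Of 8 adipocyte markers only LPL was tested and it was not called. The part of these cells in the levels of SAA3 and HP was not tested.

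The genes whose values over the 12 arrays were most like SAA3 and HP included several of the lists above. The likeness was Pearson's r with the brightest probe of each, over 780 genes whose group means spanned at least 1 log2 unit. For SAA3 these were UBE2C (r = 0.98), a ubiquitin-conjugating enzyme of mitosis, FTL (0.97), HMOX1 (0.96), S100A3 (0.96), a calcium-binding protein, and CP (0.96). For HP they were CP (0.96), GCLM (0.95), a subunit of the enzyme that starts glutathione synthesis, WDHD1 (0.94), a DNA-binding protein of replication, GPX1 (0.94), a glutathione peroxidase, and UBE2C (0.94). Their differences from the controls were smaller: for CP 2.88, 1.94 and 1.91, and for UBE2C 3.42, 2.32 and 1.98 on days 3, 5 and 7. UBE2C was above background in 1 of 3 controls, and S100A3 and WDHD1 in 0, so these genes entered the tests through the days after the bleed alone. Of the deviations from the group means, those of UBE2C correlated with SAA3 at 0.89 and those of FTL at 0.82, while those of CP did with HP at 0.51. The r over 12 arrays includes the differences from the controls that chose the members, and the genes compared had to differ between groups. The likeness is therefore a description and adds no support.

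SAA3 and LOC100009168 lie close together in the genome. In the RefSeq annotation of assembly mOryCun1.1, used for gene order only, 4 genes separate them, 2 of which are protein coding, LOC100009259 and LOC100342244. The tested genes on either side did not share their pattern. SAAL1, named for its likeness to serum amyloid A, differed by 0.26, 0.003 and 0.02 on days 3, 5 and 7 (limma adjusted p = 0.465, 0.997 and 0.965). HPS5, which functions in lysosome-related organelles, differed by -0.04, -0.18 and -0.25 (adjusted p = 0.978, 0.92 and 0.823).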

How the data were processed

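Total RNA was hybridised to 12 single-colour (Cy3) arrays. The authors deposited the output of Agilent Feature Extraction 9.5.1.1, named in the submitters' processing notes. The processed signal in these files is an intensity with the background subtracted and spatial trends removed within its array, not scaled between arrays, per the file headers. Mean and local background signals are raw intensity values, and flags are 0 or 1 (kind other), per the file headers. The value table that the authors deposited holds intensity values on a linear scale whose median is the same in all columns, and serves here as an alternative.

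Control spots were left out, outlier spots set to missing, signals divided by the 75th percentile of their array and taken to log2, and the spots of a probe averaged. A probe was tested if 1 or more groups had it well above background in all 3 arrays. The contrasts of each day with the controls and between days were fitted over all 12 arrays with limma 3.58.1 (R 4.3.3 and Python 3.11.15), two-sided, with Benjamini-Hochberg adjustment over 26437 probes, called below 0.05. The brightest tested probe stands for a gene. Of 43623 probes 22332 had 1 gene, 125 several and 21166 none, and 17 were named from product descriptions after the files were seen. The members, lists and tests were chosen with earlier results of these data known. Named genes were all probes of the members, up to 3 called genes per list and direction with the largest day 3 difference, 16 fixed genes, and the 5 genes most like SAA3 and HP, and further genes were chosen after their values were seen. The fitting script was tested on simulated data. Alternatives were normexp background correction (offset 50), quantile normalization, the authors' table, no filter, the slide as a block, array weights, each array left out, and, for lists, a gene's probes averaged. Arrays with the same replicate number share a slide, and their deviations correlated at -0.15 to 0.39. Sequences are those of the array files. Promoters and proteins were not analysed here.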

Additional observations from a re-analysis of the deposited data

How the results depend on the processing

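For day 7 minus day 5, 126 values were computed over 7 probes and 18 alternatives, with 0 calls in limma (lowest adjusted p 0.436, with array weights). The sign turned in 13 of them, all of small differences. Leaving out each array in turn gave -0.053 to 0.435 for SAA3 EST probe A (negative without day 5 replicate 2 or day 7 replicate 1), -0.0027 to 0.46 for EST probe B (without day 5 replicate 2) and -0.40 to 0.14 for SAA probe B (positive without day 5 replicates 1 or 2 and day 7 replicates 2 or 3). It gave -0.20 to 0.63 for HP probe A and -0.19 to 0.61 for HP probe B, both negative without day 5 replicate 2 or day 7 replicate 3. SAA probe B had 0.10 with normexp and 0.0064 with array weights, against -0.05. The slide as a replicate block left these differences as they were (0.47 for the SAA3 RefSeq probe, adjusted p = 1.0).

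Of 630 values of the described differences, 8 moved by more than the spread between replicates and 0 turned. All 8 were SAA3 EST probes with normexp background correction: 2.82, 1.47 and 1.61 above the controls on days 3, 5 and 7 for probe A, and 2.73, 1.36 and 1.53 for probe B, with -1.36 on day 5 and -1.20 on day 7 relative to day 3. The cause was not tested.

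Pathway genes called numbered 16, 11 and 13 of 51 tested on days 3, 5 and 7, and marker genes 14, 8 and 10 of 47. Among all tested genes, 4.91%, 1.99% and 2.01% rose and 2.03%, 0.218% and 0.585% fell on these days. With no filter on dim probes 7 and 5 pathway genes were called on days 5 and 7, and 9 and 6 marker genes on days 3 and 7. Normexp gave 8 pathway genes on day 7 and array weights 13 marker genes on day 5. Leaving out arrays gave 7 to 11 and 5 to 17 pathway genes on days 5 and 7, and 8 to 15, 5 to 10 and 6 to 13 marker genes on days 3, 5 and 7. The replicate block gave 18, 11 and 13 pathway genes and 17, 11 and 13 marker genes. With no filter the median of all probes on day 3 lay at -0.16. The 3 arrays per group and signals near background, as in the EST probes' controls, limit the precision.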
